A study of Mus musculus with 9 samples.

Results

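The mitochondrial ribosomal protein genes of 4T1 cells, a mouse mammary carcinoma line, were followed across 9 RNA-seq libraries. The genes were taken by symbol alone, as every row named Mrpl or Mrps with a number and at most 1 letter a, b or c, which gave 76 of the 24067 genes in the deposited table. Of these, 49 encode proteins of the large subunit and 26 proteins of the small subunit. Mrps30 and Mrps18a carry small-subunit names but encode proteins placed in the large subunit, and they were counted there. The remaining gene, Mrps36, encodes a protein now assigned to the 2-oxoglutarate dehydrogenase complex, so it was counted in neither subunit.

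The 9 libraries carry 2 labels that cross. By title they are 3 libraries of clone 2, 3 of clone 3 and 3 of the control, all from 4T1 cells transfected with a plasmid, and the labels' protocols describe selection of stable clones with Zeocin. Clone 2 and clone 3 overexpress the microRNA miR-204-5p, on average 150-fold and 525-fold over the control per the labels, while the control received a control plasmid. By description each title holds 1 library with the code C-20, 1 with C-26 and 1 with NTC, and the meaning of the codes is not given in the sources used here. The authors' deposited table compares the codes, with NTC as the reference of C-20 and of C-26. Each miR-204-5p title is 1 clone, so a difference between titles cannot be told apart from a difference between clones. No label states that the libraries of a title came from separate cultures, and p-values then measure only the spread between these libraries, which may be technical.

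Mitochondria have ribosomes of their own, which translate the few proteins encoded by mitochondrial DNA, all of them subunits of the respiratory chain and ATP synthase. The ribosomal RNAs are transcribed from mitochondrial DNA, but every mitochondrial ribosomal protein is encoded in the nucleus, translated in the cytosol and imported. Part of these proteins descend from bacterial ribosomal proteins and the others are specific to mitochondria, where most occupy positions of their own and some take the place of ribosomal RNA that was lost.

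The sequence of miR-204-5p is shown because it distinguishes the titles. The RefSeq entry of the mouse microRNA lies on GRCm38.p6 at chr19:22750610-22750631 on the plus strand, and capitals mark its seed, bases 2 to 8.
miR-204-5p: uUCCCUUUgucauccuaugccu
A 3′ UTR that pairs with this seed holds the letters AAAGGGA, and an A after them makes the longer site AAAGGGAA. The Mir204 gene was listed at 0 FPKM in all 9 libraries, which were made from polyadenylated RNA, so the labels' overexpression was not checked here. Of the 76 genes, 8 had AAAGGGA in the longest annotated 3′ UTR (10.5%), against 1634 of 10398 tested genes (15.7%). The longer site was present in 3 of the 76 (3.95%) and in 692 of the tested genes (6.66%). The median 3′ UTR of the ribosomal protein genes was 358 bases, against 1184 bases over the tested genes, so there was less sequence to hold a site. The 8 sites are shown with up to 10 bases on each side, as the stretches where miR-204-5p could pair with these transcripts, with capitals for the letters that match the seed.
Mrpl1: aaggggatccAAAGGGAggcaacagag
Mrpl15: atagagtgatAAAGGGAAgaataaaaac
Mrpl35: cctcggatggAAAGGGAActtcttcata
Mrpl47: tgttagcaggAAAGGGAtgtggacact
Mrpl52: tctcaaacctAAAGGGActttactgag
Mrpl54: aataaataccAAAGGGAcctacagcag
Mrps25: tgtcctctaaAAAGGGAgttgagggtg
Mrps33: taaatgctatAAAGGGAAaaaa
These letters are a match and not evidence of binding, and a gene without them lacks them only in the 3′ UTR searched.

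FPKM, fragments per length of transcript and per depth of the library, is the authors' deposited measure. It is given per length, so levels can be set side by side between genes, though only roughly. Values of genes that share exon bases with others, given below, are less certain. All 76 genes passed the filter of 1 FPKM or more in at least 3 libraries, so none was lost to it. Their median level was 36.1 FPKM, against 12.41 FPKM over the 10783 genes tested, and 69 of the 76 lay above that of all genes. The mean over 9 libraries spanned 6.08 to 230.2 FPKM, a 37.9-fold range. Large-subunit genes had a median of 38.9 FPKM and small-subunit genes 36.1 FPKM. Genes with a bacterial counterpart (46) had a median of 43.7 FPKM, against 32.0 FPKM in the 29 without one.

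The 5 most abundant transcripts all encoded large-subunit proteins. Mrpl13, whose protein has a bacterial counterpart, averaged 230.2 FPKM, with 264, 201 and 262 FPKM in clone 3 (in the order C-20, C-26 and NTC, as in all such lists), 198, 220.1 and 256 FPKM in clone 2 and 190.3, 228 and 252 FPKM in the control. Mrpl12, the stalk protein that recruits translation factors and has also been reported to bind mitochondrial RNA polymerase, averaged 163 FPKM. Mrpl52, a mitochondria-specific protein, averaged 147 FPKM, with 207, 169.6 and 161 FPKM in clone 3, 126, 126 and 144 FPKM in clone 2 and 139, 119 and 127 FPKM in the control. Its clone 3 libraries were above all 6 others. Mrpl33 averaged 133 FPKM, with 154, 114 and 116 FPKM in clone 3, 120.5, 127 and 123 FPKM in clone 2 and 132, 146 and 167 FPKM in the control. Mrpl30 averaged 118 FPKM, with 147, 121 and 109.8 FPKM in clone 3, 110.4, 113 and 98.1 FPKM in clone 2 and 110.1, 119 and 137 FPKM in the control. For both of these clone 3 overlapped with clone 2 and with the control.

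The 5 least abundant also encoded large-subunit proteins. Mrpl41, which is specific to mitochondria, averaged 6.08 FPKM, with 8.55, 7.0 and 6.42 FPKM in clone 3, 3.41, 4.87 and 3.83 FPKM in clone 2 and 8.88, 7.42 and 4.33 FPKM in the control. Clone 3 was above clone 2 in every library and overlapped with the control. Mrpl17 averaged 6.65 FPKM, Mrpl1 8.07 FPKM and Mrpl39 9.58 FPKM. Mrpl39, a mitochondria-specific protein, had 11, 10.3 and 12 FPKM in clone 3, 7.22, 9.17 and 8.42 FPKM in clone 2 and 10.4, 10.3 and 7.40 FPKM in the control. Mrpl19, at a mean of 7.35 FPKM, varied little, with 6.85, 7.80 and 7.51 FPKM in clone 3, 7.41, 6.45 and 9.07 FPKM in clone 2 and 6.24, 6.53 and 8.30 FPKM in the control. Clone 3 overlapped with the control for both genes, and was above all of clone 2 for Mrpl39.

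**Figure D1:**
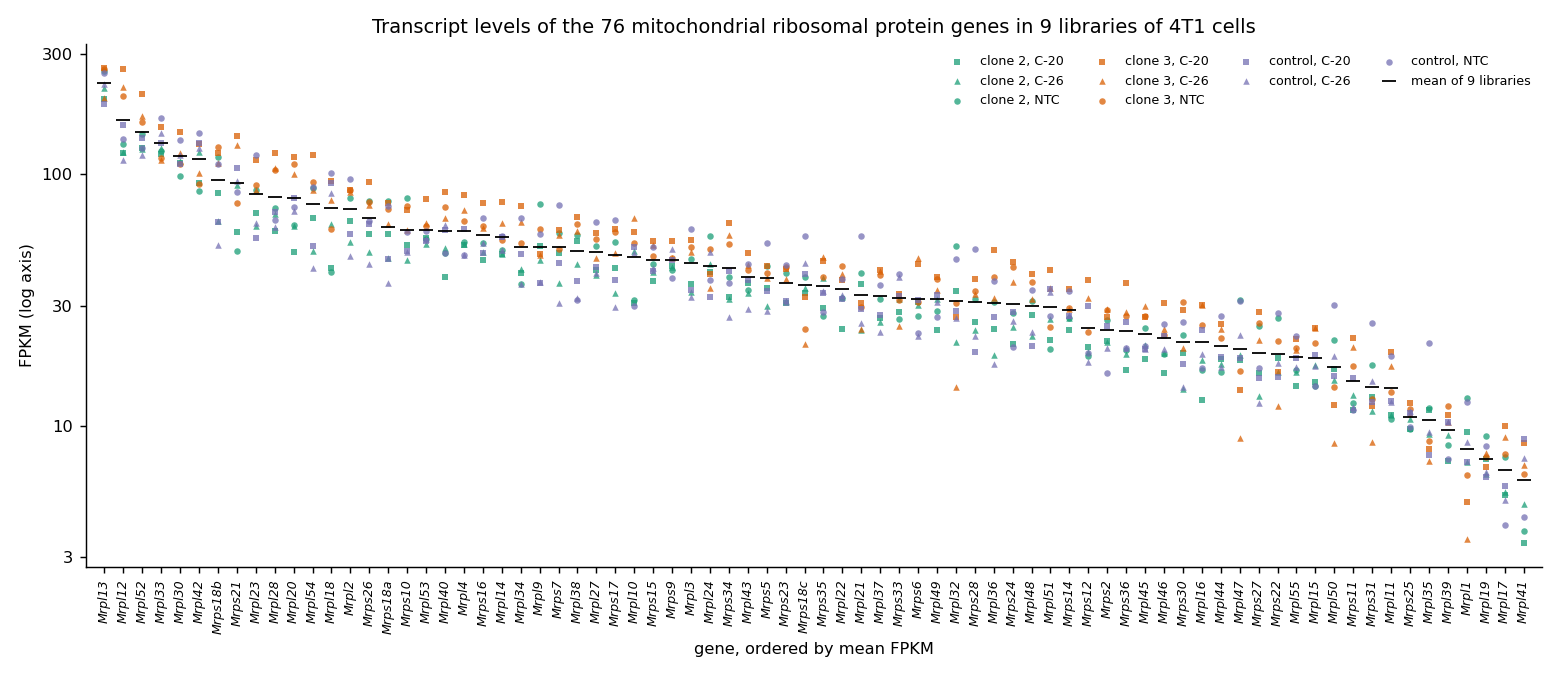
FPKM (log axis) of the 76 mitochondrial ribosomal protein genes, ordered by their mean over 9 libraries (black bars). Each point is 1 library, coloured by title and shaped by code. Levels run from 3.41 FPKM, for Mrpl41 in a clone 2 library, to 264 FPKM, for Mrpl13 in a clone 3 library, and the 9 points of most genes lie close together beside the distance between genes.

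Across libraries the genes varied about as much as other genes. The median SD of log2(FPKM + 1) over 9 libraries was 0.343 for the ribosomal protein genes and 0.337 for all genes tested. The highest library was 1.27 to 3.65 times the lowest, with a median of 2.05 times, and 40 of the 76 exceeded 2 times. The 4 genes above 3 times were Mrpl32, Mrpl1, Mrpl50 and Mrpl47. By SD the 5 most variable were Mrpl32 (0.54), Mrpl47 (0.53), Mrpl1 (0.52), Mrpl54 (0.49) and Mrps21 (0.49). Mrpl54, a mitochondria-specific large-subunit protein, had 119, 86.5 and 92.9 FPKM in clone 3, 67.0, 49.5 and 88.1 FPKM in clone 2 and 51.9, 42.5 and 88.5 FPKM in the control. In clone 2 and the control its NTC library was the highest, and in clone 3 the C-20 library was. Mrps21, a small-subunit protein with a bacterial counterpart, had 142, 130.3 and 77.0 FPKM in clone 3, 59.0, 90.7 and 49.3 FPKM in clone 2 and 106, 93.5 and 84.7 FPKM in the control. Its NTC library was the lowest in each title.

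A few libraries held most of the extremes. The C-20 library of clone 3 was the highest of the 9 for 36 genes and the NTC library of the control for 21. The lowest value lay in the C-26 library of the control for 20 genes and in the C-20 library of clone 2 for 19. Together the 76 genes took 0.767% to 0.822% of all FPKM in clone 3, 0.677% to 0.743% in clone 2 and 0.700% to 0.778% in the control. Absolute depth is unknown because no read counts were used, and relative depth, from the steps of low FPKM values, ran from 0.900 to 1.155. Epithelial markers (7 of 7 at a mean of 1 FPKM or more, led by Krt18) summed to 1222 to 1590.2 FPKM in clone 3, 885 to 1375 FPKM in clone 2 and 387 to 1183 FPKM in the control. By code they summed to 1183 to 1585 FPKM in C-26, 885 to 1590.2 FPKM in C-20 and 387 to 1222 FPKM in NTC. Endothelial markers (5 of 5 below a mean of 1 FPKM) summed to at most 0.32 FPKM, fibroblast markers (5 of 6 below) to at most 8.06 FPKM and leukocyte markers (6 of 7 below, with Cd3e at 0 in every library) to at most 11.5 FPKM. Fibroblast markers summed to 4.71 to 8.06 FPKM in C-26 and 1.48 to 3.71 FPKM in NTC, and leukocyte markers to 7.51 to 11.5 FPKM in C-26 and 4.6 to 6.36 FPKM in NTC. Pdgfra was the most abundant of the fibroblast and Cd68 of the leukocyte markers, and only 1 gene of each of these lists passed the filter. The limma test of C-26 against NTC with the title as block, given below, called both of these genes higher. Their log2 changes were 1.20 for the fibroblast and 0.61 for the leukocyte marker. Of the 7 epithelial markers it called 2 higher and 1 lower, against 6.75% and 7.36% of all genes. The part of these markers in the results by title and by code was not tested. In bulk RNA, fewer cells of a type and less RNA per cell cannot be told apart.

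Clone 3 was compared with the control to ask how these transcripts differ between the clone with the larger labelled increase of miR-204-5p and cells with the control plasmid. Transcripts for 9 of the 76 genes were higher in clone 3 (11.8%) and 1 was lower (1.32%), against 7.44% and 13.2% of all genes tested. The share called higher was thus near that of all genes, and the share called lower was smaller than it. The median change of the 76 genes was 0.28 on the log2(FPKM + 1) scale, against 0.09 over all genes, and 63 of them (82.9%) were above 0, against 57.2% of all genes. All tests by title used limma with Benjamini-Hochberg adjustment over the 10783 genes, called below 0.05. The fitted change understates that of low genes because 1 FPKM was added.

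Among the 9, Mrpl38, a mitochondria-specific protein of the large subunit's central protuberance, had the largest change. It had 67.2, 59.6 and 63.0 FPKM in clone 3, against 37.5, 32.1 and 31.7 FPKM in the control. Every clone 3 library was above every control library. The means were 63.3 ± 3.8 FPKM in clone 3 and 33.8 ± 3.2 FPKM in the control (SD, n = 3 each), a log2 change of 0.89 ± 0.16 (SE, limma adjusted p = 0.00355).

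Mrpl12 had 260.3, 221 and 205 FPKM in clone 3, against 157, 114 and 138 FPKM in the control. The groups did not overlap. The means were 229 ± 28.5 FPKM in clone 3 and 136 ± 21.8 FPKM in the control (SD, n = 3 each), a log2 change of 0.75 ± 0.17 (SE, limma adjusted p = 0.0120).

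Mrpl28, a large-subunit protein with a bacterial counterpart, had 121, 105 and 104 FPKM in clone 3, against 70.9, 61.7 and 65.6 FPKM in the control. Again every clone 3 library was the higher. The change was 0.73 ± 0.15 (log2, SE, limma adjusted p = 0.00802).

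Mrpl17, related to a bacterial protein near the exit of the nascent chain, was one of the least abundant of the 76 and had 9.93, 9.05 and 7.70 FPKM in clone 3, against 5.75, 5.07 and 4.03 FPKM in the control. No control library reached the lowest of clone 3. The change was 0.74 ± 0.19 (log2, SE, limma adjusted p = 0.0210).

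In the small subunit, the mitochondria-specific Mrps34 had 63.6, 57.4 and 52.5 FPKM in clone 3, against 41.1, 27.1 and 36.8 FPKM in the control, a log2 change of 0.73 ± 0.18 (SE, limma adjusted p = 0.0203). Mrps24, which has a bacterial counterpart, had 44.9, 37.2 and 42.7 FPKM in clone 3, against 28.4, 26.1 and 20.6 FPKM in the control, a log2 change of 0.72 ± 0.18 (SE, limma adjusted p = 0.0173). Neither gene's groups overlapped. The other 3 called higher were Mrps6, Mrps11 and Mrpl20, with log2 changes of 0.63, 0.60 and 0.53 and limma adjusted p of 0.0468, 0.0325 and 0.0351. Of the 9, 8 had all 3 clone 3 libraries above all 3 control libraries, and for Mrps6 the groups overlapped. Among all 76 genes 32.9% lay above the control in this way, against 21.9% of all genes tested. Below the control it was 5.26%, against 18.8%.

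The transcript called lower was Mrps18c. Mammals have Mrps18a, Mrps18b and Mrps18c, 3 paralogs of 1 bacterial small-subunit protein, and the products of b and c sit in the small subunit while that of a sits in the large one. Of the 3, Mrps18c alone was counted here as having the bacterial counterpart, because its product takes that protein's place in the small subunit. Mrps18c had 32.4, 21.2 and 24.1 FPKM in clone 3, against 40.1, 44.4 and 56.7 FPKM in the control. All 3 clone 3 libraries were below the control's. The means were 25.9 ± 5.8 FPKM in clone 3 and 47.1 ± 8.6 FPKM in the control (SD, n = 3 each), a log2 change of −0.84 ± 0.19 (SE, limma adjusted p = 0.0136). The paralogs were not called: Mrps18b had 121, 111 and 128 FPKM in clone 3, against 64.7, 52.4 and 110.0 FPKM in the control. Mrps18a had 76.7, 63.6 and 72.8 FPKM in clone 3, against 46.1, 36.9 and 74.7 FPKM in the control. For Mrps18a and Mrps18b the NTC library of the control stood well above the control's others.

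By subunit, 5 of 49 large-subunit genes and 4 of 26 small-subunit genes were higher in clone 3, with median log2 changes of 0.27 and 0.28. Of the genes with a bacterial counterpart, 7 of 46 were higher, and of those without, 2 of 29. A further 4 genes had log2 changes of 0.75 or more in size without passing the limma test: Mrpl47 at −0.85 (adjusted p = 0.0584), Mrpl50 at −0.82 (adjusted p = 0.0531), Mrpl1 at −0.80 (adjusted p = 0.0564) and Mrpl54 at 0.75 (adjusted p = 0.0901). Mrpl1 and Mrpl47 hold a miR-204-5p seed match, and so does Mrpl54, whose value was positive. The log2 changes of the 8 genes with a match ran from −0.85 for Mrpl47 to 0.75 for Mrpl54, and the 10 genes called in this comparison lacked one. Of all 76 genes only 10.5% hold a match.

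The calls changed with the libraries in the fit and with a joint correction for length and GC content. The ribosomal protein genes are short, with a median length of 1221 bases against 2863 bases over the tested genes. With a correction for length and GC content 4 were called (3 higher and 1 lower), with a median change of 0.15. Only 2 of these were among the genes called without the correction. Under it Mrpl17 and Mrps18c were still called, at 1.46 and −0.73, while Mrpl38 was at 0.45 (limma adjusted p = 0.104) and Mrpl12 at 0.35 (limma adjusted p = 0.192). Between 3 and 21 genes were called when 1 library was left out, with 3 without the C-20 library of clone 3, 4 without the C-26 library of clone 3, 5 without the C-26 library of the control and 21 without the NTC library of the control. For these fits the share of all genes called is not given, so the counts are not set against a background.

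The promoters of Mrps18c and Mrpl17 are shown as those of the largest called changes in clone 3 against control, in either direction, that had 1 RefSeq promoter entry (GRCm38.p6, 250 bases before to 50 after the start) with a motif searched. They were chosen after the values were seen. Motifs of 4 regulators of nuclear genes for mitochondrial proteins or of growth were searched on both strands: CGCATGCG for NRF1, CCGGAAG for ETS factors including GABP, which reads CTTCCGG on the other strand, AAGATGGCG for YY1, which reads CGCCATCTT there, and the E-box CACGTG bound by MYC. None of these overlapped within the stretches shown. Capitals mark the matches.
Mrps18c, chr5:100798509-100798808, plus strand: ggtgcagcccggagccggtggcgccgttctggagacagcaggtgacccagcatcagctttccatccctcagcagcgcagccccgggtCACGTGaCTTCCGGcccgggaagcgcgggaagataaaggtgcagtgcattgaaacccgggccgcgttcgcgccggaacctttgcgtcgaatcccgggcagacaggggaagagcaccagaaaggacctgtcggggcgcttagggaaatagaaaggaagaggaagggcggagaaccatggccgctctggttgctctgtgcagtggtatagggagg
Mrpl17, chr7:105811038-105811337, minus strand: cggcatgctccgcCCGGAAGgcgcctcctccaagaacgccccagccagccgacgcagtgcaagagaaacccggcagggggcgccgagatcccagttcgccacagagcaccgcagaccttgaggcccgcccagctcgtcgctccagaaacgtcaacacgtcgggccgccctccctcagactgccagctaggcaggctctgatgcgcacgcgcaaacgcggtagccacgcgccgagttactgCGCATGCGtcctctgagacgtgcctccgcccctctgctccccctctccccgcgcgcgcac
In the Mrps18c promoter CACGTG began 163 bases before the start and CTTCCGG 156 bases before it. In the Mrpl17 promoter CCGGAAG began 237 bases and CGCATGCG 10 bases before it. The NRF1 letters were present in 7 of the 67 ribosomal protein genes with an entry (10.4%), against 4.75% of 8682 tested genes and 2.07% of all 27025 genes with one. The ETS letters were in 24 (35.8%), against 22.3% of tested and 9.93% of all genes, and the YY1 letters in 8 (11.9%), against 4.03% and 1.64%. The E-box was in 5 (7.46%), against 12.3% and 8.09%. A match is a description of the letters, not a site, and the other 9 genes had no entry.

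Clone 3 against clone 2 compared both miR-204-5p clones with each other. Clone 3 had higher transcripts for 10 genes (13.2%) and lower for 1 (1.32%), against 6.03% and 12.8% of all genes tested. The median change was 0.40, against 0.04 over all genes, and 64 genes (84.2%) were above 0, against 53% of all genes. This comparison shares the clone 3 libraries with the one above, so its counts are not a separate support of it. All 3 clone 3 libraries were above all 3 of clone 2 for 44 of the 76 genes (57.9%), including the 10 called, against 23.7% of all genes tested. They were below all 3 for 5 genes (6.58%), against 21.2%.

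Mrpl20, a large-subunit protein with a bacterial counterpart, had 117, 100.2 and 109 FPKM in clone 3, against 48.9, 62.0 and 62.6 FPKM in clone 2. The groups lay far apart. The means were 109 ± 8.5 FPKM in clone 3 and 57.8 ± 7.7 FPKM in clone 2 (SD, n = 3 each), a log2 change of 0.91 ± 0.15 (SE, limma adjusted p = 0.00324). The control lay between the clones, at 80.1, 71.2 and 73.9 FPKM.

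Mrpl12 had 121, 122 and 131 FPKM in clone 2, all below the lowest clone 3 library, and its change was 0.86 ± 0.17 (log2, SE, limma adjusted p = 0.00658). Mrpl16, related to a bacterial protein at the peptidyl transferase centre, had 30.1, 30.2 and 25.2 FPKM in clone 3, against 12.6, 18.2 and 16.7 FPKM in clone 2. No library of clone 2 reached the lowest of clone 3. Its change was 0.82 ± 0.19 (log2, SE, limma adjusted p = 0.0150).

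In clone 2, Mrps24 had 21.2, 24.7 and 28.1 FPKM, Mrps34 had 32.5, 32.0 and 39.1 FPKM and Mrpl28 had 59.2, 69.7 and 73.5 FPKM. All lay below every clone 3 library. The log2 changes were 0.74 for Mrps24, 0.73 for Mrps34 and 0.70 for Mrpl28, with limma adjusted p of 0.0173, 0.0218 and 0.0107. The other 4 called higher were Mrpl40, Mrps36, Mrps11 and Mrpl15, at 0.70, 0.68, 0.65 and 0.55. Mrpl12, Mrpl20, Mrpl28, Mrps11, Mrps24 and Mrps34 were higher in clone 3 than in both clone 2 and the control.

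Mrpl1, whose bacterial counterpart forms the stalk beside the exit site of tRNA, was the one called lower. It had 4.98, 3.56 and 6.36 FPKM in clone 3, against 9.42, 7.19 and 12.9 FPKM in clone 2. The groups did not overlap. The means were 4.96 ± 1.4 FPKM in clone 3 and 9.83 ± 2.87 FPKM in clone 2 (SD, n = 3 each), a log2 change of −0.85 ± 0.27 (SE, limma adjusted p = 0.0482). With the correction for length and GC content its change was 0.02 (limma adjusted p = 0.97), so neither its direction nor its call held. Of the genes called against clone 2, Mrpl1 holds a miR-204-5p seed match and Mrpl15, called higher, holds the longer site. Under the correction 6 genes were called in all, each higher, and 3 of them were among those called without it. Leaving out 1 library gave between 2 and 30 calls, with 2 without the C-20 library of clone 2 or of clone 3, 5 without the C-26 library of clone 3 and 30 without the NTC library of the control. Here too the counts are not set against the share of all genes called in the same fits.

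**Figure D2:**
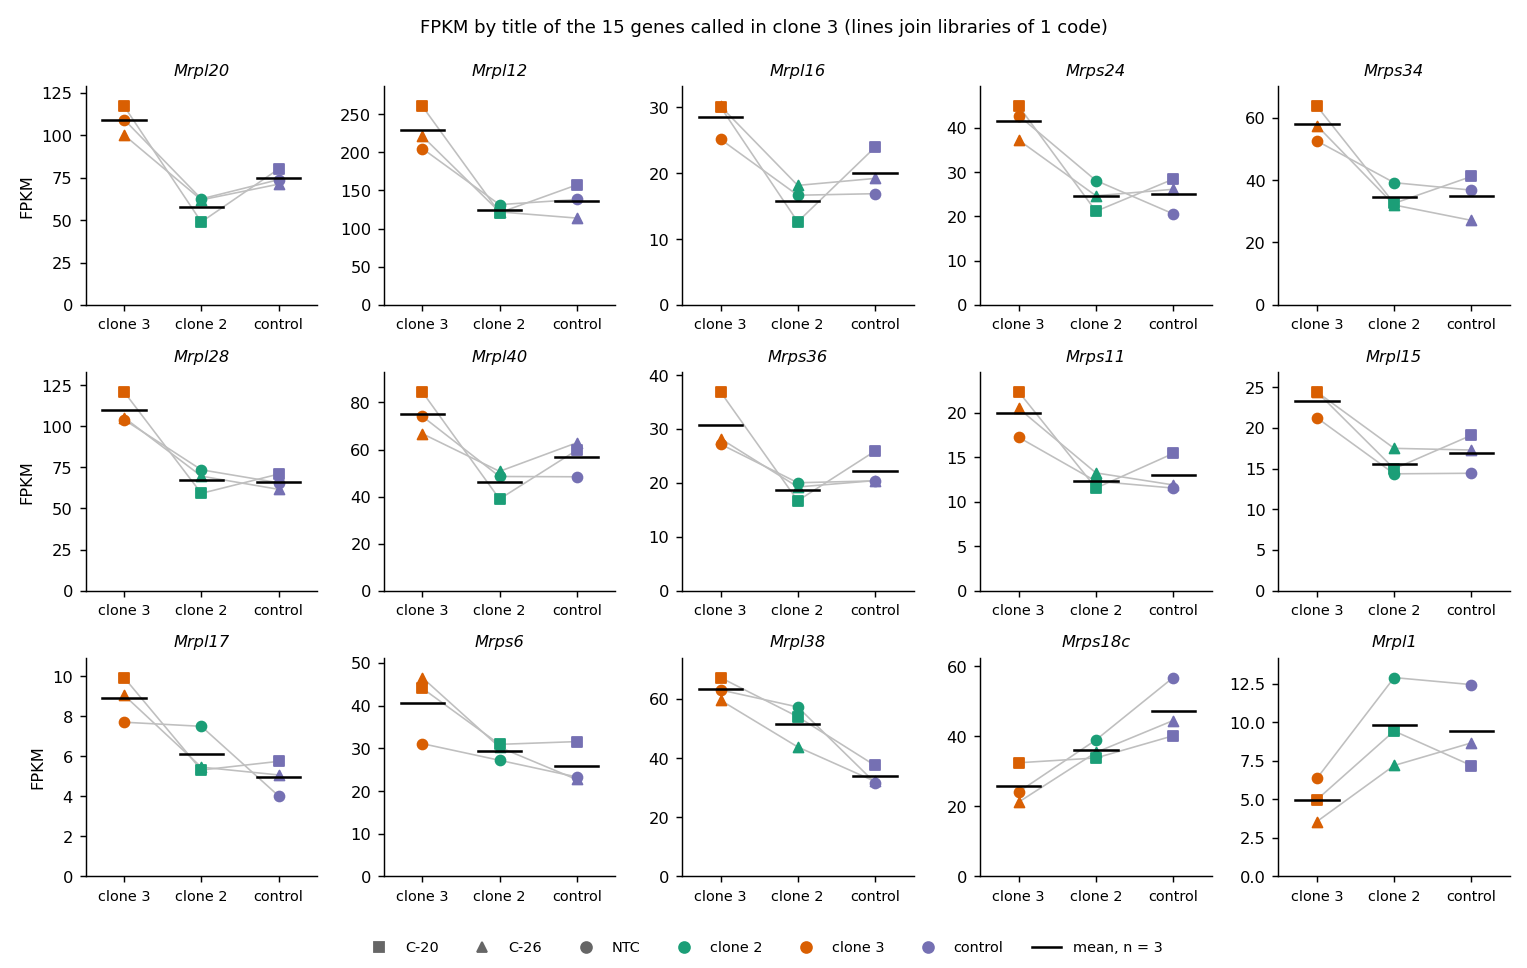
FPKM of the 15 genes called in clone 3 against the control or against clone 2, with clone 3, clone 2 and the control from left to right in each panel. Each point is 1 library, grey lines join libraries of 1 code and black bars are means of 3. Mrpl12, Mrpl20, Mrpl28, Mrps11, Mrps24 and Mrps34 are higher in clone 3 than in both others, and Mrps18c and Mrpl1 are lower in clone 3.

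Clone 2 against the control called none of the 76 genes in either direction by limma, and 0% of all genes higher or lower. At an unadjusted p under 0.05, 1 gene was higher (1.32%) and 5 were lower (6.58%), against 5.52% and 3.28% of all genes, and the lowest adjusted p was 0.324. That value belonged to Mrpl18, whose bacterial counterpart binds the 5S ribosomal RNA, with 42.4, 63.5 and 40.9 FPKM in clone 2, against 92.0, 84.3 and 100.7 FPKM in the control. Its groups did not overlap, with a log2 change of −0.93 ± 0.22 (SE). Mrpl38 was at 0.59 (limma adjusted p = 0.343), with 54.0, 43.8 and 57.3 FPKM in clone 2. The 3 clone 2 libraries were above those of the control. The median change was −0.07, against 0.03 over all genes, and 25 of the 76 genes (32.9%) were above 0, against 53.8% of all genes.

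The codes were set against each other within titles, because libraries of 1 title resembled each other. C-26 against NTC, with the title as block, called 12 of the 76 genes lower (15.8%) and none higher, against 7.36% lower and 6.75% higher of all genes tested. At an unadjusted p under 0.05, 25 were lower (32.9%) and 4 higher (5.26%), against 17.1% and 16.3% of all genes. The median change was −0.14, against −0.01 over all genes, and 55 genes (72.4%) were at or below 0, against 50.9% of all genes. Without the block limma called none of the 76, with 10 lower (13.2%, against 7.97% of all genes) and 0 higher (against 8.67%) at an unadjusted p under 0.05 and a lowest adjusted p of 0.151, where 0.0185% of all genes were called lower and 0.121% higher. The 12 genes were lower in C-26 in all 3 titles. For 7 of them every C-26 library was below every NTC library. Over all 76 genes this held for 15.8%, near the 12.4% of all genes tested. The reverse held for 1.32%, against 10.8%.

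The promoters of Mrpl32, Mrpl21 and Mrps22 are shown as those of the 3 largest of these changes, again with 1 RefSeq entry each and chosen after the values were seen. Capitals mark matches to the motifs given above.
Mrpl32, chr13:14612988-14613287, minus strand: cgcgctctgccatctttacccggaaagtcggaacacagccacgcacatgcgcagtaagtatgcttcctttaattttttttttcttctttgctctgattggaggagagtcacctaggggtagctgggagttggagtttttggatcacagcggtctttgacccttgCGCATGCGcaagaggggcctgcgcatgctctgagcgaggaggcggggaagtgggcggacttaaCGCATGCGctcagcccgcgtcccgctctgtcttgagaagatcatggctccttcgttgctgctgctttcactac
Mrpl21, chr19:3282792-3283091, plus strand: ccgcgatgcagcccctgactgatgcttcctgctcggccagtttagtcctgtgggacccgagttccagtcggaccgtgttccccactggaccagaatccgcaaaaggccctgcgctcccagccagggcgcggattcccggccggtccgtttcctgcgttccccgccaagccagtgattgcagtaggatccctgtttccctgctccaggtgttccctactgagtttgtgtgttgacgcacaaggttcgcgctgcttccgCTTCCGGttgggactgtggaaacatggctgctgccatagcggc
Mrps22, chr9:98601630-98601929, minus strand: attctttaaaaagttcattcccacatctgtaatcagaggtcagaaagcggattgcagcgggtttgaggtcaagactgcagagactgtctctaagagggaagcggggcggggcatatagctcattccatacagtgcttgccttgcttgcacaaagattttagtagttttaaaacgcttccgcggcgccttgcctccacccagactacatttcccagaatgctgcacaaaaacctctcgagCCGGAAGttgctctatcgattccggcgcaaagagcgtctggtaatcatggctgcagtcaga
In the Mrpl32 promoter the NRF1 letters CGCATGCG began 86 and 23 bases before the start. CTTCCGG began 7 bases after the start of Mrpl21, and CCGGAAG 11 bases before that of Mrps22. Only these motifs were searched, and none of the 3 held the E-box letters in this window.

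Mrpl32, a large-subunit protein that is matured by the mitochondrial m-AAA protease before it joins the ribosome, had the largest change. It had 21.4, 14.2 and 26.8 FPKM in the C-26 libraries of clone 2, clone 3 and the control, against 52.0, 30.7 and 46.0 FPKM in the NTC libraries. The C-20 libraries lay at 34.4, 27.2 and 28.5 FPKM. Every C-26 library was below every NTC library, and in each title the C-20 library lay between them. The means were 20.8 ± 6.3 FPKM in C-26 and 42.9 ± 11 FPKM in NTC (SD, n = 3 each), a log2 change of −1.02 ± 0.18 (SE, limma with title block, adjusted p = 0.0116). The within-title differences were −1.24 in clone 2, −1.06 in clone 3 and −0.76 in the control.

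Mrpl21, with a bacterial counterpart, had 24, 24.2 and 25.5 FPKM in the C-26 libraries (clone 2, clone 3, control), against 40.5, 29.6 and 56.6 FPKM in the NTC libraries. The C-26 libraries were close to each other and below all of NTC, which spread widely. The change was −0.71 ± 0.20 (log2, SE, limma with title block, adjusted p = 0.0418). Mrps22, a mitochondria-specific small-subunit protein, had 16.4, 11.9 and 17.7 FPKM in C-26, against 26.9, 21.7 and 27.9 FPKM in NTC. The groups did not overlap, with a change of −0.71 ± 0.16 (log2, SE, limma with title block, adjusted p = 0.0230).

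Mrps30, a mitochondria-specific protein of the large subunit, had 14.0, 20.4 and 14.3 FPKM in C-26, against 22.9, 30.9 and 25.8 FPKM in NTC, a change of −0.69 ± 0.15 (log2, SE, limma with title block, adjusted p = 0.0204). Mrps17, a small-subunit protein with a bacterial counterpart, had 33.7, 48.8 and 29.6 FPKM in C-26, against 53.8, 58.7 and 65.4 FPKM in NTC, a change of −0.68 ± 0.18 (log2, SE, limma with title block, adjusted p = 0.0373). Neither overlapped. Mrps18b had 65.3, 111 and 52.4 FPKM in C-26, against 117, 128 and 110.0 FPKM in NTC, a change of −0.70 ± 0.18 (log2, SE, limma with title block, adjusted p = 0.0338). Its clone 3 library of C-26 lay above the control library of NTC, so these groups overlapped.

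The other 6 were Mrpl36, Mrpl47, Mrpl1, Mrps18a, Mrpl50 and Mrpl9, with log2 changes of −0.66, −0.65, −0.64, −0.64, −0.61 and −0.56. Their adjusted p (limma with title block) ran from 0.0337 for Mrpl9 to 0.0452 for Mrpl50, and Mrps31, at −0.61 with 0.0536, missed the threshold. Of the 3 paralogs, Mrps18a and Mrps18b were thus lower in C-26, while Mrps18c had 35.4, 21.2 and 44.4 FPKM in C-26, against 38.9, 24.1 and 56.7 FPKM in NTC, and was not called. By subunit, 9 of 49 large and 3 of 26 small-subunit genes were lower, and 7 of 46 genes with and 5 of 29 without a bacterial counterpart. The highest values were those of Mrps21, at 0.59 (adjusted p = 0.0696), and Mrpl10, at 0.55 (adjusted p = 0.0706), both short of the limma threshold. Mrpl1 was the only one of the 12 that was also called in a comparison of clone 3. Among the 12, Mrpl1 and Mrpl47 hold a miR-204-5p seed match.

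**Figure D3:**
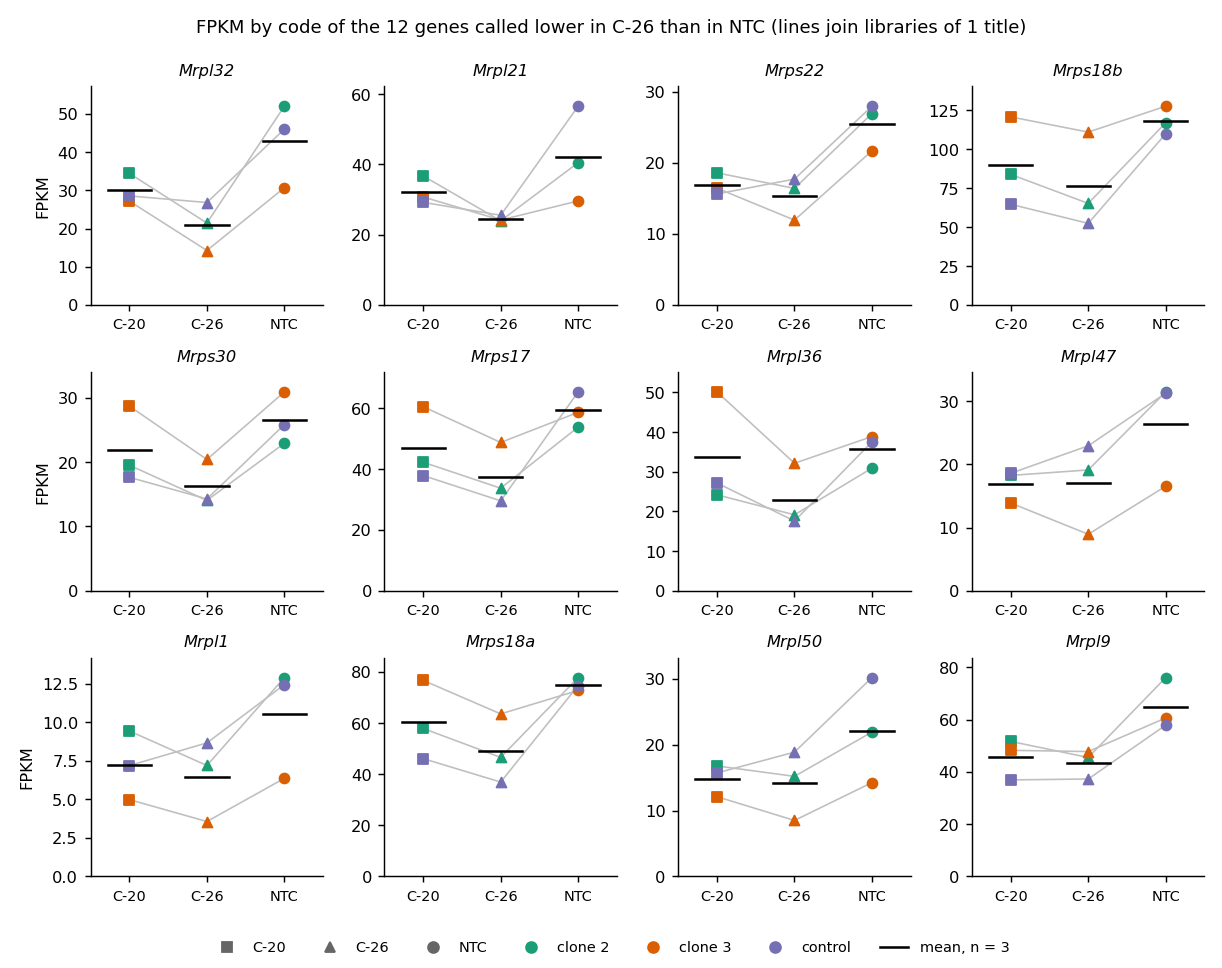
FPKM of the 12 genes called lower in C-26 than in NTC with the title as block, with C-20, C-26 and NTC from left to right in each panel. Each point is 1 library, lines join libraries of 1 title and black bars are means of 3. In every panel the C-26 point of each title lies below its NTC point, and for Mrpl32 all 3 C-26 points, at 14.2 to 26.8 FPKM, lie below all 3 NTC points.

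The 12 calls depended on which libraries were in the fit. By limma, 0 genes were called without the C-26 or the NTC library of clone 2, 1 without the C-26 library of the control, 3 without the C-20 or the C-26 library of clone 3, 4 without the NTC library of the control, 5 without the C-20 library of clone 2 and 18 without the NTC library of clone 3. Likewise 0 were called when the clone 3 libraries were left out or without the filter on low values, and 3 were called in a fit of C-26 and NTC libraries only. The shares of all genes called in these fits are not given. These counts therefore do not show whether the ribosomal protein genes changed more than other genes.

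C-20 against NTC called none of the 76 genes, either with the title as block (lowest limma adjusted p = 0.106, background 0.13% lower and 0.176% higher) or without it (lowest limma adjusted p = 0.617, background 0.0185% lower and 0% higher). At an unadjusted p under 0.05, 8 were lower (10.5%) and 3 higher (3.95%) with the block, against 10.6% and 10.4% of all genes. Without it 2 were lower (2.63%) and 0 higher, against 3.78% and 3.95% of all genes. The shares of lower genes were thus near or under the background. The median change was −0.065, against −0.01 over all genes. Of the 76 genes 55.3% were below 0, against 51.1% of all genes at or below 0. All 12 genes lower in C-26 also had negative values in C-20, between −0.14 and −0.57, and 8 were lower in C-20 in all 3 titles. C-20 and C-26 share the NTC libraries, so these values are not separate. Mrps22 had the lowest adjusted p of C-20 with the block, at −0.56 ± 0.16 (log2, SE), with 18.6, 16.4 and 15.6 FPKM in the C-20 libraries of clone 2, clone 3 and the control. All were below the NTC libraries. C-26 against C-20, with the title as block, called none either (lowest limma adjusted p = 0.999, background 0% lower and 0.0185% higher), with 3 lower (3.95%) and 0 higher at an unadjusted p under 0.05, against 1.48% and 1.83% of all genes. Mrpl32, at −0.54, and Mrpl36, at −0.52, were the most negative of these. The median change of C-26 against C-20 was −0.08, against 0 over all genes. Of the 76 genes 59 (77.6%) were below 0, against 50.1% of all genes at or below 0. By title 50% were lower in clone 2, 89.5% in clone 3 and 65.8% in the control, against 45.5%, 59.5% and 47.6% of all genes.

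The authors' deposited table tests the codes on genes above 0 in all libraries, and all 76 genes are in it. In the authors' deposited table, at a raw p under 0.05, C-26 over NTC had 3 of the 76 lower and 0 higher, and C-20 over NTC had 1 lower and 1 higher. These shares of 3.95% and 2.63% were under those of all 13414 genes in the authors' deposited table, 8.86% and 4.24%. The lowest adjusted p-values of the 76 in the authors' deposited table were 0.554 for C-26 over NTC and 0.911 for C-20 over NTC. For Mrpl32 the authors' deposited table gives a signed fold of −1.91 for C-26 over NTC, with a raw p of 0.0497. For Mrps22 the authors' deposited table gives −1.57, with a raw p of 0.0264.

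**Figure D4:**
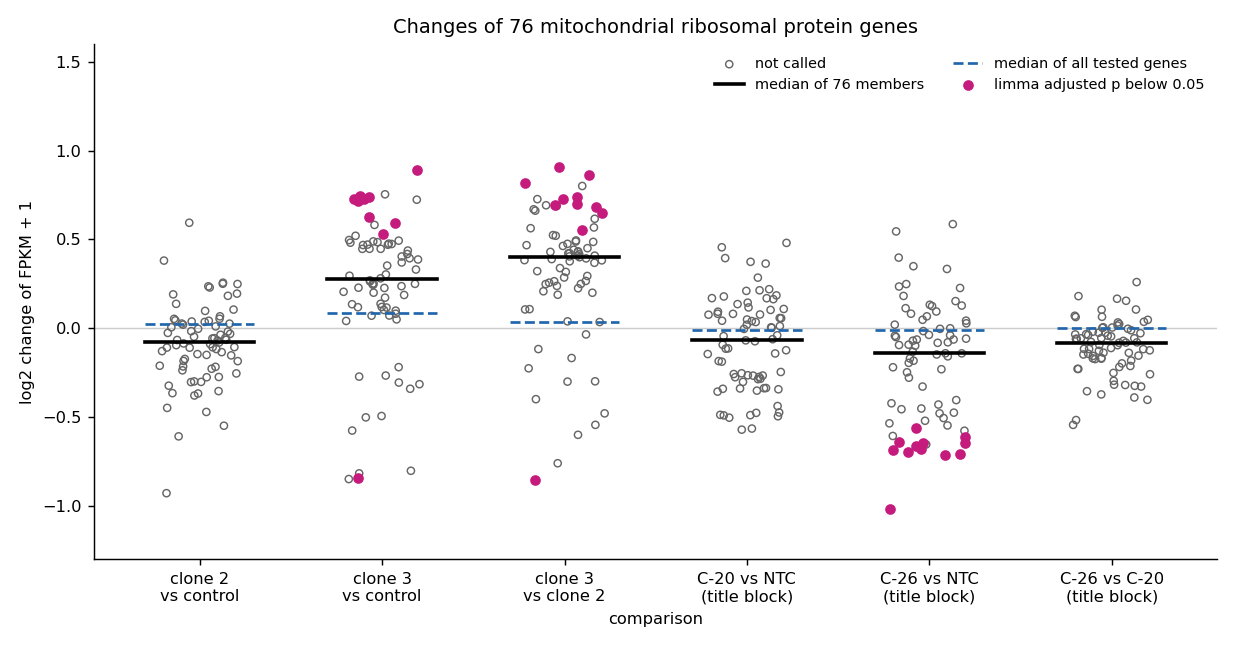
Fitted log2 change of FPKM + 1 of each of the 76 genes in 6 comparisons. Filled points passed limma's adjusted threshold of 0.05, open points did not, black lines are medians of the 76 genes and dashed lines medians of all genes tested. The 76 genes lie mostly above 0 in clone 3 against the control (median 0.28) and against clone 2 (median 0.40), and mostly below 0 in C-26 against NTC (median −0.14).

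Since each title occurs once with each code, the differences can be read within pairs of single libraries. Clone 3 minus the control gave a median over the 76 genes of 0.42 in C-20, 0.43 in C-26 and 0.05 in NTC, with 68, 57 and 39 genes higher. Over all genes the medians were 0.04, 0.01 and 0.16. The shift of the ribosomal protein genes above all genes was thus seen in the C-20 and C-26 pairs, while in the NTC pair their median lay below that of all genes. Clone 3 minus clone 2 gave 0.53, 0.41 and 0.16, with 64, 63 and 58 genes higher and medians of 0.04, −0.005 and 0.06 over all genes. Clone 2 minus the control gave −0.11, −0.03 and −0.11, with −0.03, −0.003 and 0.11 over all genes.

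C-26 minus NTC gave a median of −0.16 in clone 2, −0.03 in clone 3 and −0.29 in the control, with 50, 43 and 57 genes lower. Over all genes the medians were −0.001, −0.10 and 0.12. The 76 genes thus lay below all genes in the pairs of clone 2 and the control, while in clone 3 they lay above them, with 56.6% lower against 61.6% of all genes. C-20 minus NTC gave −0.25 in clone 2, 0.16 in clone 3 and −0.26 in the control, against −0.05, −0.06 and 0.10 over all genes. In clone 3, 58 of 76 genes (76.3%) were higher in C-20, against 43% of all genes. In clone 2, 60 (78.9%) were lower, against 56.3% of all genes, and in the control 50 (65.8%), against 43.7%. Each pair is 1 library against 1, so the difference between the pairs was not tested.

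**Figure D5:**
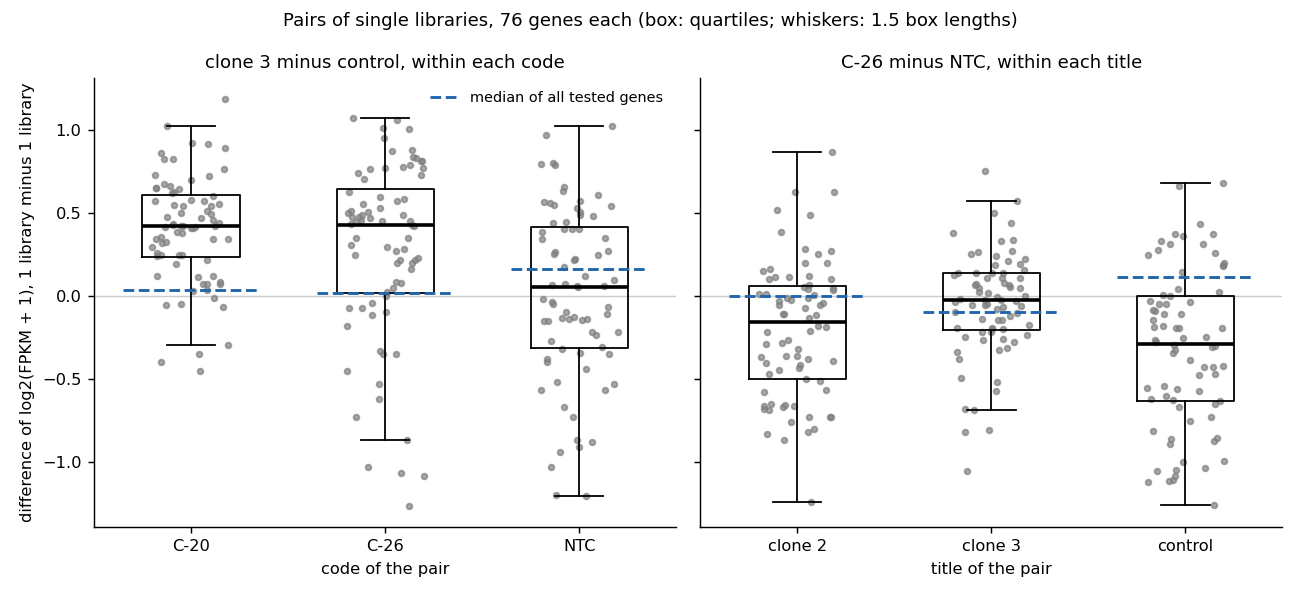
Differences of log2(FPKM + 1) between single libraries for the 76 genes, clone 3 minus control within each code (left) and C-26 minus NTC within each title (right). Boxes span the quartiles of the 76 genes and dashed lines are medians of all genes tested. Clone 3 lies above the control by a median of 0.42 in C-20 and 0.43 in C-26 but 0.05 in NTC.

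Genes that act with the mitochondrial ribosome moved in both directions. Of 7 ribosomal proteins with other names, Ict1 (a peptidyl-tRNA hydrolase built into the large subunit) and Gadd45gip1 were higher in clone 3 than in the control, at 0.85 and 0.74, and none was lower (median 0.34, with 3 higher and 0 lower at an unadjusted p under 0.05, where all genes had 17.4% and 18.5%). Of 27 assembly factors 2 were higher and 1 lower (median 0.34), with the GTPase Gtpbp10 at −1.39, Trub2 at 0.71 and Noa1 at 0.63. Of 15 translation factors 3 were higher and 3 lower (median 0.11). Tufm, the elongation factor that brings tRNA to the ribosome, had 79.8, 84.7 and 69.6 FPKM in clone 3, against 53.6, 41.3 and 35.5 FPKM in the control, and its log2 change was 0.85. Its nucleotide exchange factor Tsfm was at 0.74, while Slirp, which stabilises mitochondrial messenger RNA, was at −1.13 and Guf1 at −1.0. Of 17 mitochondrial tRNA synthetases 1 was higher and 1 lower, Aars2 at 1.00 and Lars2 at −0.67.

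Of 16 genes for mitochondrial DNA maintenance and transcription 1 was higher and 4 were lower in clone 3 than in the control (median 0.13). The largest was Trmt10c, a subunit of mitochondrial RNase P, with 3.12, 2.02 and 5.25 FPKM in clone 3, against 10.4, 12.7 and 25.6 FPKM in the control and a change of −1.91. Pnpt1 was at −1.38, Tfb2m at −0.83 and Ssbp1 at −0.83. Of 27 import genes 2 were higher and 1 lower, Tomm40 at 1.02, Timm50 at 0.72 and Timm21 at −0.98. Nuclear respiratory chain and ATP synthase subunits had 11 of 74 higher and 3 lower (median 0.20), and cytosolic ribosomal proteins 3 of 80 higher and 0 lower (median 0.24). At an unadjusted p under 0.05 the cytosolic ribosomal proteins had 16 higher (20%) and 1 lower (1.25%), against 17.4% and 18.5% of all genes. All these counts come from the limma test above, and the lists were described, not tested, beside the background of 7.44% higher and 13.2% lower.

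Against clone 2, clone 3 had 15 of 74 respiratory chain subunits higher and 0 lower (median 0.41), with 35 higher (47.3%) and 0 lower at an unadjusted p under 0.05. Over all genes 6.03% were called higher and 12.8% lower, and 15.6% were higher and 19% lower at an unadjusted p under 0.05. It had 2 of 80 cytosolic ribosomal proteins higher (median 0.26), 4 of 27 import genes higher and 1 lower (median 0.30), and 0 of 27 assembly factors higher (8 at an unadjusted p under 0.05) with Gtpbp10 lower at −1.25. Of the translation factors Tsfm (0.73) and Tufm (0.70) were higher and Mtif2 (−0.88) and Guf1 (−0.73) lower. In clone 2 against the control limma called no gene of these lists, and at an unadjusted p under 0.05 the respiratory chain had 6 lower and 0 higher and the cytosolic ribosomal proteins 0 in either direction. In C-20 against NTC with the title as block it called none either, with 1 lower and 3 higher of the respiratory chain and 5 lower and 2 higher of the cytosolic ribosomal proteins at an unadjusted p under 0.05.

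In C-26 against NTC with the title as block, the same lists were set beside the 7.36% lower and 6.75% higher of all genes. Cytosolic ribosomal proteins had 1 of 80 higher (Rpl37a, 0.79) and 4 lower (5%), led by Rpl22l1 at −1.27 and Rps27a at −1.06 (median −0.27), so the share called was under the background in both directions. Of the assembly factors, Mterfd1 (−1.14) and Wbscr16 (−0.87) were lower and Rbfa (0.71) higher, with a median of −0.24. The genes for mitochondrial DNA had 3 of 16 lower (median −0.35), with Trmt10c at −1.02, Mgme1 at −0.56 and Mtpap at −0.50. The ribosome recycling factor Mrrf was lower, at −0.64, as were the tRNA synthetase Yars2, at −0.64, and the import chaperone Hspa9, at −0.99. Of the 7 ribosomal proteins with other names limma called none, with 2 lower and 0 higher at an unadjusted p under 0.05 (median 0.06). Over all genes 17.1% were lower and 16.3% higher at that level. Respiratory chain subunits had 3 of 74 higher and 4 lower (median −0.05), with Cox6a2 at −2.71 and Atp5k at 0.94.

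Of 10 regulators of nuclear genes for mitochondrial proteins, 9 passed the filter, and Ppargc1a did not, with at most 0.020 FPKM in any library. Gabpa, the DNA-binding subunit of the ETS factor GABP, had 3.60, 2.52 and 5.84 FPKM in clone 3, against 10.9, 12 and 17.1 FPKM in the control. The groups did not overlap, and the log2 change was −1.55 (limma adjusted p = 0.00260). Clone 2 had 13.9, 11.6 and 15 FPKM, and clone 3 was below it by a change of −1.58. The coactivator Pprc1 had 36.0, 41.5 and 42.3 FPKM in clone 3, against 23.7, 19.1 and 26.3 FPKM in the control, a change of 0.78 (limma adjusted p = 0.0104). Nrf1, Esrra and Ppargc1b were not called in clone 3, at 0.36, 0.40 and 0.18, and Tfam, the packaging protein of mitochondrial DNA, was at −0.59 (limma adjusted p = 0.0564).

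By code, the growth regulator Myc had 153, 138 and 90.5 FPKM in the C-26 libraries of clone 2, clone 3 and the control, against 554, 310.4 and 432 FPKM in the NTC libraries. All C-26 libraries were far below those of NTC, and with the title as block the log2 change was −1.75 (limma adjusted p = 0.00764). In C-20 Myc had 292, 139 and 88.4 FPKM, a change of −1.45 (limma with title block, adjusted p = 0.0564). Of the other regulators in C-26, Gabpa was at −0.60 and Nrf1 at −0.40, neither called. The part of these regulators in the levels of the ribosomal protein genes was not tested.

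Some of the values could mix transcripts of neighbouring genes, since the library kit named in the labels does not mark strand. In the GENCODE M21 annotation, 30 of the 76 genes shared exon bases with another gene, 23 of them with a protein-coding one. Of the genes called above, Mrps34 shared 63.4% of its exon bases with Mapk8ip3 on the other strand and 37% with Nme3 on the same strand, and Mrps18b shared 30.5% with an antisense gene. Mrpl12 shared 13.1% with a noncoding gene on the other strand. Mrpl47 shared 13.9% with Ndufb5 and 10.2% with Actl6a, both on the other strand. Mrps11 and Mrpl46 lie head to head on chromosome 7 and shared 173 bases. Mrps24 and Mrps6 shared bases with genes on the same strand, 15.4% with Urgcp for Mrps24 and 19.9% with Gm49711 for Mrps6. These values are therefore less certain than those of genes without an overlap.

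Over the 8 comparisons made, 26 of the 76 genes were called in at least 1 and 50 in none. All 12 code calls were lower, 13 genes were called higher in clone 3 and 2 lower. The genes lay on 17 chromosomes, with 10 of them on chromosome 11.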

How the data were processed

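Per the labels' protocols, RNA was purified by TRIzol, and libraries of polyadenylated RNA were read in pairs on a HiSeq2500. Per the submitters' processing notes, TopHat2 2.0.13, Bowtie2 2.2.3 and Cufflinks 2.2.1 were used with mm10. The authors' deposited table gives FPKM of 24067 genes in 9 libraries. A further table deposited by the authors, of 13414 genes above 0 in every library, holds log2 values after quantile normalization and, per the file headers, signed folds (a score that is negative where the fold is below 1), raw p-values and adjusted p-values for each pair of codes. The order of the signed fold was set from the authors' group means, which equalled those of the codes.

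The test took the 10783 genes that reached 1 FPKM in 3 libraries or more. log2(FPKM + 1) was fitted for all 9 libraries with limma 3.58.1 (trend, R 4.3.3) with Benjamini-Hochberg adjustment over these genes and calls below 0.05. The fit was tested on simulated data with noise that was independent between libraries. The simulation left out the shared deviations of libraries given below, so it cannot speak to their effect. Title comparisons had no block. Code comparisons are given with the title as block, because libraries of 1 title deviated together (their deviations correlated by 0.26 to 0.883, highest within the own title for 9 of 9 libraries). Within a code the correlations between titles ran from −0.235 to 0.562.

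The members and the gene lists were chosen with earlier results of these data known. The subunit and the bacterial counterpart of each member were assigned from general knowledge. Named in full were the called members, up to 6 in each direction per comparison, the 5 highest, 5 lowest and 5 most variable, the Mrps18 paralogs and Mrpl12. From the other lists up to 4 called genes per comparison were named, besides the regulators. The overlap of exons and 3′ UTRs came from GENCODE M21, and promoters and the microRNA from RefSeq (GRCm38.p6). Alternatives were a pseudocount of 0.1, no filter, quantile and median ratio scaling, the authors' quantile-normalized values, array weights, the fit of the compared groups alone, blocks, a length and GC correction with splines of 4 degrees of freedom, and each library left out. Python 3.11.15, numpy 2.4.6, pandas 2.3.3 and matplotlib 3.10.9 were used otherwise.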

Additional observations from a re-analysis of the deposited data

Results flagged for a closer look

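Clone 3 and clone 2 both carry miR-204-5p. By limma's test of the difference between the clones, with Benjamini-Hochberg adjustment, 11 of the 76 genes differed (14.5%), and this is why they are listed here. Of all genes tested 18.8% differed, so the share was not above the background. The difference (clone 3 minus clone 2, log2) was 0.91 for Mrpl20, 0.86 for Mrpl12, 0.82 for Mrpl16, 0.74 for Mrps24, 0.73 for Mrps34, 0.70 for Mrpl28, 0.70 for Mrpl40, 0.68 for Mrps36, 0.65 for Mrps11 and 0.55 for Mrpl15, and it was −0.85 for Mrpl1. All 3 clone 3 libraries were on the same side of all 3 clone 2 libraries for each of the 11. Over all genes tested, 23.7% had clone 3 above clone 2 in this way and 21.2% had it below.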

How the results depend on the processing

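In clone 3 against the control 10 genes were called, and 3 to 21 with 1 library left out. Array weights (fitted gene by gene) called 42, and the length and GC correction 4. In clone 3 against clone 2, where 11 were called, 2 to 30 were called with 1 library left out, 53 with array weights, 20 in a fit of both clones only and 6 with the length and GC correction, under which Mrpl1 reversed to 0.02. Between titles, libraries of 1 code number correlated by 0.266 to 0.562 in NTC and C-26 but by −0.235 to 0.207 in C-20, and 7 of 9 correlated best with their own number, so the number was not taken to pair the titles throughout. With it as replicate block 26 genes were called in clone 3 against the control (21 higher and 5 lower) and 27 against clone 2 (23 higher and 4 lower). Clone 2 against the control went to 10 calls with array weights (2 higher and 8 lower). In C-26 against NTC with the title as block 12 were called, and 0 to 18 with 1 library left out. There were 0 without the filter, 23 with array weights and 3 with only the groups compared. Without the title block, or without the clone 3 libraries, 0 were called. Without the block the fit went to 16 with array weights and to 12 when the title was added as block. C-20 against NTC with the block went to 2 with array weights. The shares of all genes called in these fits, and in the fits with 1 library left out given above, are not stated here. These counts are therefore not set against a background. The cause of these changes was not tested.

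The median change stayed above 0 in clone 3 against the control (0.154 to 0.389) and against clone 2 (0.198 to 0.469), the low ends with the length and GC correction, and below 0 in C-26 against NTC with the block (−0.223 to −0.058). Mrpl28 and Mrpl38 in clone 3 against the control, and Mrpl12 and Mrpl20 against clone 2, were called in 9 of 9 fits with 1 library left out, and Mrpl32 in C-26 in 7. The absolute depth is unknown, so no counting error could be given, and with 3 libraries a group small changes of the low genes were not resolved.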
